A study of Arabidopsis thaliana with 12 samples.

Results

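The heat shock factor and heat shock protein genes of Arabidopsis thaliana were followed by RNA-seq in whole seedlings that differed in genotype and in exposure to methyl viologen. The set was chosen by locus identity alone and held 36 loci: the heat shock factor (HSF) family, small heat shock proteins (sHSPs), the disaggregase HSP101, the inducible HSP70 genes HSP70 and Hsp70b, and HSP90.1. Of these, 32 were among the 21543 loci of the count table: 18 factors, 10 sHSPs and 4 large chaperones. HSFA7B, HSFB1, HSP21 and ATHSP22.0 were not analysed here. All but 1 of the 32 passed the filter on low counts, the exception being HSP17.6II with 77 counts over the 12 libraries, so 31 were tested.

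Heat shock factors are transcription factors that bind heat shock elements, repeats of the bases GAA in alternating orientation, and turn on chaperone genes when proteins unfold. Class A factors carry an activation domain, whereas class B and class C factors lack it, and some class B factors act as repressors. Chaperones of the HSP70, HSP90 and HSP101 families refold or dissolve damaged proteins, and sHSPs hold unfolded proteins until the larger chaperones act. In plants the same factors also respond to hydrogen peroxide, salt and other stresses, at temperatures far from heat shock.

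The 4 groups had 3 libraries each. Wild-type Col-0 and a med8 mutant, whose allele the labels do not name, were grown for 2 weeks at 21°C with 16 h light and 8 h dark on medium with 1% sucrose, without or with 25 nM methyl viologen, a herbicide (paraquat) that generates superoxide in chloroplasts. The labels mention no heat treatment. Seedlings on methyl viologen are called treated. Libraries held 30.47 to 34.69 M counts. The gene MED8, which encodes a subunit of the Mediator complex between transcription factors and RNA polymerase II, stood at 18.9 to 20.5 CPM (counts scaled to library size) in Col-0 controls and 19.4 to 22.2 CPM in treated Col-0, against 5.06 to 6.41 CPM and 4.85 to 6.21 CPM in med8.

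CPM values are per 1 M counts of effective library size and are given for replicates 1, 2 and 3 in that order. Differences are log2 fold changes ± SE from edgeR's quasi-likelihood test over 20741 loci, and "rose", "fell", "higher" or "lower" as a call means a Benjamini-Hochberg adjusted p under 0.05. Root and leaf transcripts were both present: the 17 root marker genes summed to 132 to 252 CPM and the leaf gene RBCS1A stood at 6990 to 13600 CPM. Col-0 control replicate 1 and med8 control replicate 3 were farthest from their group mates, at 26.1 to 37 as chi-square over degrees of freedom, where the mates differed by 8.93 and 6.33. In whole seedlings, fewer cells of a type and less RNA per cell cannot be told apart.

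In Col-0, few members were called on methyl viologen: HSP70, HSP90.1 and HSFA6A rose and HSFA8 fell. These were 4 of 31 (12.9%), where 28.8% of all loci tested passed, 15.4% higher and 13.4% lower. Several members had few counts, so a missed threshold does not show that a gene was unchanged. HSFA6A passed the count filter only through treated libraries. Without Col-0 control replicate 3, 2 members were called. In med8, 12 members rose and 2 fell, 14 of 31 (45.2%), where 43.1% of all loci passed. By direction, 38.7% of members rose in med8 against 21.8% of all loci, and 6.45% fell against 21.2%. Without HSP23.6-MITO, which passed the count filter only through treated med8, 11 of 30 rose (36.7%). The median member difference was 0.04 in Col-0 and 0.65 in med8 (log2), with medians of 0 and 0.03 over all loci tested. The genotypes shared 3 called members: HSP70 and HSP90.1 rose in both, and HSFA8 fell in Col-0 and rose in med8.

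**Figure D1:**
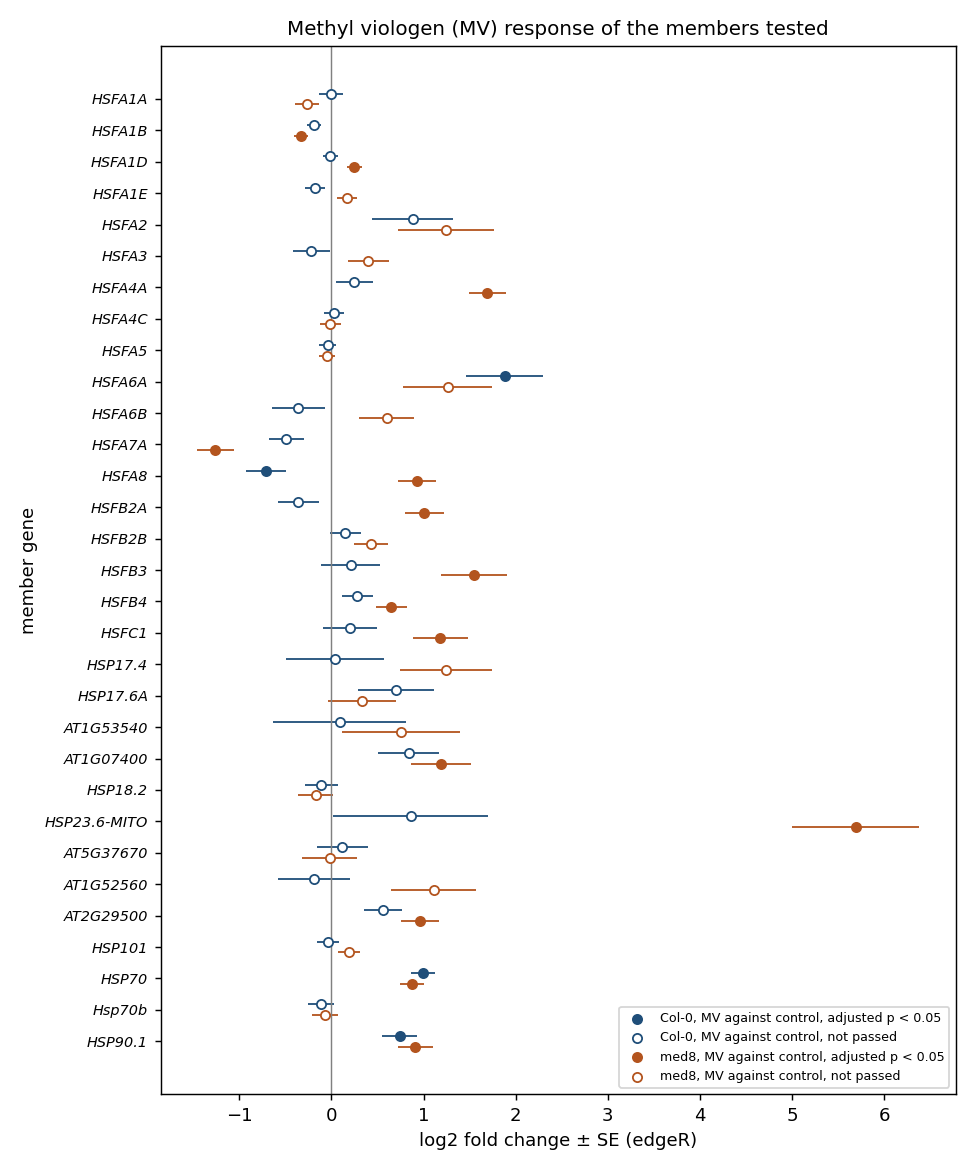
Each row is 1 of the 31 members tested and the horizontal axis is the log2 fold change on methyl viologen against control medium, with bars of 1 SE (edgeR, 3 libraries a group). Blue is Col-0 and orange is med8. Filled points passed an adjusted p of 0.05 and open points did not. HSP23.6-MITO lies farthest right in med8, at 5.69, and HSP70 lies near 1 in both genotypes.

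The tests of the difference in response itself, the interaction of genotype and methyl viologen, called 4 of 31 members (12.9%, against 13.9% of all loci). All 4 had the higher value in med8 (6.25% of all loci did, and 7.66% the lower): HSFA4A, HSFA8, HSFB2A and HSP23.6-MITO. The last of these was tested only because it was high in treated med8, and without it the count was 3 of 30 (10%). For the other members, a call in 1 genotype and not in the other does not show that the responses differed.

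HSFA4A, a class A factor known from work on oxidative and salt stress, was at 11.2, 16.4 and 14.9 CPM in Col-0 controls and 15.3, 19.1 and 16.3 CPM in treated Col-0. In med8 it was at 13.6, 14.7 and 9.3 CPM in controls and 30.9, 45.5 and 45 CPM on methyl viologen. The treated med8 libraries lay above every other library. Treated Col-0 overlapped its controls, and med8 controls overlapped Col-0 controls. HSFA4A rose in med8 (1.69 ± 0.20, edgeR adjusted p = 6.67e-05), was not called in Col-0 (0.25 ± 0.20, edgeR adjusted p = 0.378) and its interaction was 1.44 ± 0.28 (edgeR adjusted p = 0.00645). On methyl viologen med8 exceeded Col-0 by 1.26 ± 0.20 (edgeR adjusted p = 0.000929).

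HSFA8, a class A factor linked to redox signalling, moved in opposite directions in the genotypes. It stood at 10.3, 17.8 and 15 CPM in Col-0 controls and 6.64, 8.88 and 10.9 CPM in treated Col-0, groups that overlapped through control replicate 1. In med8 it stood at 12.8, 14.5 and 10.4 CPM in controls and 20.9, 27.4 and 23.4 CPM on methyl viologen, with no overlap. In Col-0 it fell (−0.71 ± 0.22, edgeR adjusted p = 0.031). In med8 it rose (0.93 ± 0.21, edgeR adjusted p = 0.00459), and the interaction was 1.64 ± 0.31 (edgeR adjusted p = 0.0046). On methyl viologen med8 exceeded Col-0 by 1.44 ± 0.22 (edgeR adjusted p = 0.000711). That fall in Col-0 no longer passed without control replicate 2 of Col-0 (−0.53) or 3 (−0.68), without treated Col-0 replicate 1 (−0.54) or 2 (−0.71), and in a fit of Col-0 alone (−0.71). Over all alternatives the adjusted p of that fall ran from 0.00316 to 0.116, while the interaction stayed called in each (1.45 to 1.83).

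HSFB2A, a class B factor, was at 4.17, 6.53 and 4.99 CPM in Col-0 controls and 3.85, 5.34 and 3.05 CPM in treated Col-0. Its med8 values were 4.96, 6.04 and 4.42 CPM in controls and 9.62, 9.7 and 11.8 CPM on methyl viologen. Only the last group lay apart from the others for this gene. It rose in med8 (1.01 ± 0.21, edgeR adjusted p = 0.00251) and not in Col-0 (−0.36 ± 0.22, edgeR adjusted p = 0.246), and the interaction was 1.37 ± 0.30 (edgeR adjusted p = 0.0114). On methyl viologen med8 exceeded Col-0 by 1.35 ± 0.21 (edgeR adjusted p = 0.000929).

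HSP23.6-MITO encodes a small heat shock protein of mitochondria. Its transcript was near 0 in 3 groups: 0, 0.0969 and 0.221 CPM in Col-0 controls, 0.298, 0.145 and 0.142 CPM in treated Col-0, and 0, 0 and 0.178 CPM in med8 controls. In med8 on methyl viologen it reached 2.86, 3.55 and 3.1 CPM, above every other library. The med8 libraries held 348 counts on methyl viologen and 5 in controls, a ratio of 55.1 with an exact 95% counting interval of 23.4 to 171. Col-0 held 21 and 10 counts, a ratio of 1.84 (0.83 to 4.38). On methyl viologen med8 had 16.1 times the Col-0 level (10.4 to 26.4, counting error only). The gene passed the count filter only through the treated med8 libraries, so it had to be high there to be tested at all, and its values against that group are a description. The fitted differences were 5.69 ± 0.69 within med8 and 3.99 ± 0.54 for med8 against Col-0 on methyl viologen. Between the Col-0 groups the difference was 0.86 ± 0.84 (edgeR adjusted p = 0.485).

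The interaction of HSP23.6-MITO was 4.83 ± 1.30 (edgeR adjusted p = 0.0293). The same condition bears on this value. Its interaction lost the call in 7 fits without 1 library: Col-0 control replicate 2 (4.89) or 3 (3.75), Col-0 methyl viologen replicate 2 (4.66) or 3 (4.65), med8 control replicate 1 (4.27), and med8 methyl viologen replicate 2 (4.74) or 3 (4.85). Its adjusted p over all alternatives ran from 6.58e-05 to 0.243. Without med8 control replicate 3, which held all 5 counts of the med8 controls, the fitted rise in med8 went from 5.69 to 9.73 and the interaction to 8.88. The med8 controls left then held 0 counts, so the size of these values depends on the prior count.

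**Figure D2:**
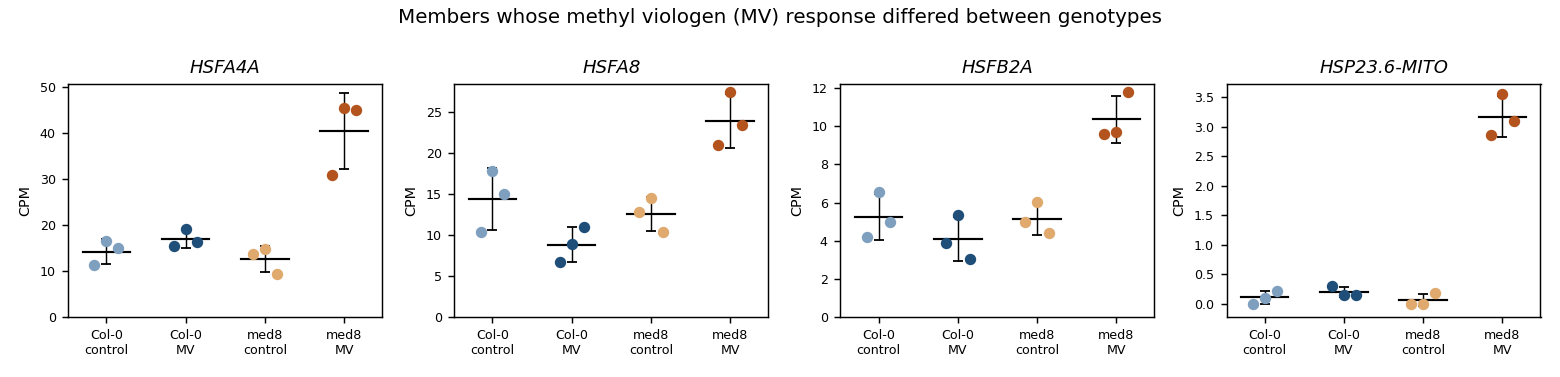
Points are the CPM of each library for the 4 members with a called interaction, in the 4 groups along the horizontal axis (MV, methyl viologen). HSP23.6-MITO was tested only because it was high in treated med8. Black lines are the group mean with bars of 1 SD (n = 3). In each panel the 3 med8 libraries on methyl viologen lie above all others, from 2.86 to 3.55 CPM for HSP23.6-MITO and from 30.9 to 45.5 CPM for HSFA4A.

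Set per length of the exons, the make-up of the factor family changed in med8 on methyl viologen. In Col-0 controls the factor with the highest level was HSFA1B, at 11.1 CPM per kb, followed by HSFA8 (8.35), HSFA5 (6.78), HSFA7A (6.21) and HSFA4A (6.03), and the lowest were HSFC1 (0.199) and HSFA6A (0.233). In med8 on methyl viologen HSFA4A (17.2 CPM per kb) and HSFA8 (13.9) were above HSFA1B (10.1). HSFA4A, HSFA8 and HSFB2A together made up 42, 47.8 and 45.6% of the summed level of the 18 factors there. In the other 9 libraries they made up 22.1 to 31%. The summed level itself was 73.4, 85.4 and 86.7 CPM per kb in med8 on methyl viologen and 55.9 to 68 CPM per kb elsewhere. These 3 factors were picked for their interaction and are part of the summed level. Their shares and the rise of the sum are therefore a description.

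**Figure D3:**
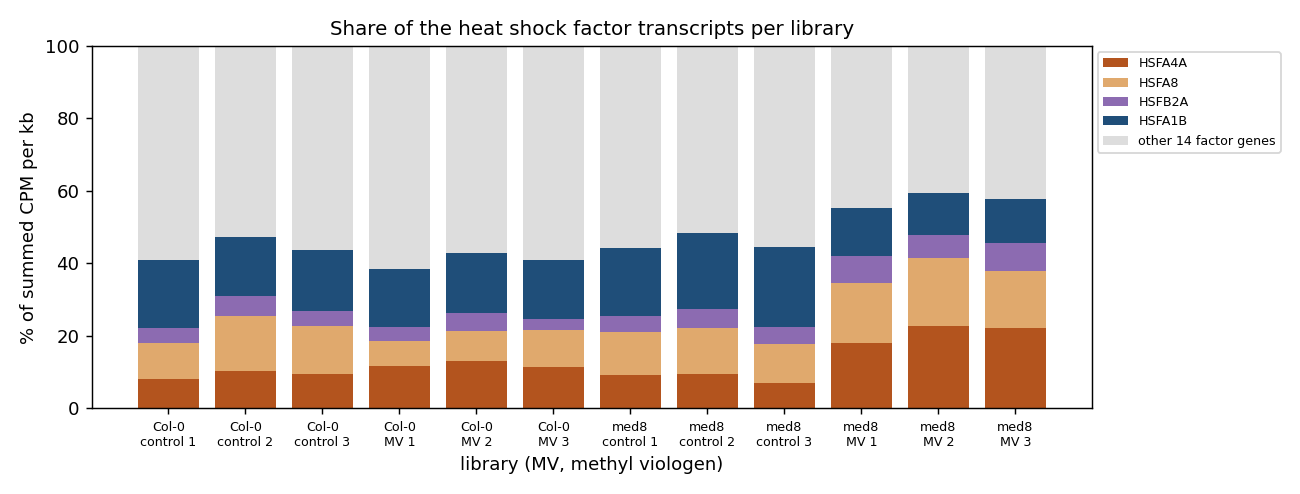
Each bar is 1 library and shows the percentage of the summed CPM per kb of the 18 heat shock factor genes taken by HSFA4A, HSFA8, HSFB2A, HSFA1B and the other 14. The share of HSFA4A lies at 17.9 to 22.7% in med8 on methyl viologen (MV) and at 7.09 to 13.1% in the other libraries.

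Of the HSFA1 factors, the master regulators that start the heat response, 2 were called, by small amounts. HSFA1B was at 22.3, 22.3 and 22.5 CPM in Col-0 controls, 17.9, 20.7 and 20 CPM in treated Col-0, 24.1, 27.8 and 24.7 CPM in med8 controls and 19.6, 19.8 and 21.5 CPM in med8 on methyl viologen. Both treated groups lay below their controls, and it fell in med8 (−0.33 ± 0.08, edgeR adjusted p = 0.00412) without a call in Col-0 (−0.19 ± 0.08, edgeR adjusted p = 0.0749). HSFA1D was at 10.5, 11.3 and 9.72 CPM in med8 controls and 11.8, 12.7 and 12.9 CPM in med8 on methyl viologen, and at 10.1 to 10.5 CPM in treated Col-0. It was called higher in med8 with methyl viologen (0.25 ± 0.08, edgeR adjusted p = 0.0341) and higher than in Col-0 there (0.27 ± 0.08, edgeR adjusted p = 0.0342).

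Both HSFA1D calls depended on single libraries. The call within med8 did not hold without control replicate 2 of Col-0 (0.23), med8 control replicate 1 (0.25) or 3 (0.18), or med8 methyl viologen replicate 2 (0.23) or 3 (0.22), and also with RLE scaling (0.22), DESeq2 (0.22), a fit of med8 alone (0.23) and without both libraries that stood apart (0.18). The call between genotypes was lost without any of the 3 Col-0 libraries on methyl viologen (0.26 to 0.29) and without med8 methyl viologen replicate 2 (0.26) or 3 (0.25). The adjusted p over all alternatives ran from 0.0195 to 0.127 and from 0.0187 to 0.11. HSFA1A and HSFA1E passed in no comparison.

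HSFA7A, a heat-inducible class A factor, fell in med8. It stood at 6.51, 7.11 and 7.99 CPM in Col-0 controls and 4.47, 5.28 and 5.61 CPM in treated Col-0. In med8 it stood at 7.09, 5.57 and 3.81 CPM in controls and 2.54, 2.08 and 2.27 CPM on methyl viologen, below every other library. It fell in med8 (−1.26 ± 0.20, edgeR adjusted p = 0.000455) and was lower in med8 than in Col-0 on methyl viologen (−1.16 ± 0.20, edgeR adjusted p = 0.00169), with −0.49 ± 0.19 in Col-0 (edgeR adjusted p = 0.074) and an interaction of −0.77 ± 0.28 (edgeR adjusted p = 0.0945). Without med8 control replicate 3 the interaction (−0.98) and the Col-0 value (−0.50) passed, as they did without both libraries that stood apart (−0.92 and −0.56). The Col-0 value also passed without med8 control replicate 1 (−0.49) and in a fit of Col-0 alone (−0.49). The adjusted p over all alternatives ran from 0.00667 to 0.208 for the interaction and from 0.0102 to 0.222 in Col-0.

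HSFA6A, a class A factor known from salt and drought responses, was low throughout. Its levels were 0.228, 0.291 and 0.221 CPM in Col-0 controls and 1.08, 0.609 and 1.05 CPM in treated Col-0, with no overlap. In med8 they were 0.138, 0.371 and 0.0712 CPM in controls and 0.405, 0.383 and 0.626 CPM on methyl viologen. It rose in Col-0 (1.88 ± 0.42, edgeR adjusted p = 0.00615), with 1.26 ± 0.48 in med8 (edgeR adjusted p = 0.0527) and −0.95 ± 0.37 between genotypes on methyl viologen (edgeR adjusted p = 0.0888). The count cutoff was met in 0 Col-0 controls, 1 med8 control and all 3 libraries of each treated group. HSFA6A thus had to be high in treated seedlings to be tested, and its differences from controls are a description. The med8 value passed without med8 control replicate 2 (2.13) or treated Col-0 replicate 2 (1.26) and with upper-quartile scaling (1.29), range of adjusted p 0.00781 to 0.17. The value between genotypes passed without med8 control replicate 2 or 3, without both libraries that stood apart and in a fit of the treated groups alone (−0.95 in each), range 0.0434 to 0.249.

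HSFA3, a class A factor that acts downstream of DREB2A, was the 1 member of 31 called between the genotypes on control medium (3.23%, against 5.79% of all loci, 2.81% higher and 2.98% lower). It was at 2.41, 2.88 and 3.53 CPM in Col-0 controls and 1.34, 1.38 and 1.35 CPM in med8 controls, lower in all 3 med8 libraries (−1.11 ± 0.21, edgeR adjusted p = 0.0129). On methyl viologen it was at 2.22, 2.09 and 3.27 CPM in Col-0 and 1.82, 1.99 and 1.56 CPM in med8 (−0.50 ± 0.20, edgeR adjusted p = 0.102). That call did not hold without control replicate 3 of Col-0 (−0.96) and in a fit of the control groups alone (−1.11), range of adjusted p 0.000543 to 0.0631.

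HSFA2, a factor strongly induced by heat that prolongs the heat response, stayed low. Its levels were 0.228, 0.582 and 0.757 CPM in Col-0 controls, 1.06, 0.638 and 1.2 CPM in treated Col-0, 0.344, 0.338 and 0.107 CPM in med8 controls and 0.549, 0.902 and 0.443 CPM in med8 on methyl viologen. The Col-0 groups overlapped and the med8 groups did not. It was called in no comparison, with 0.88 ± 0.44 in Col-0 (edgeR adjusted p = 0.163) beside 1.24 ± 0.52 in med8 (edgeR adjusted p = 0.0723). The med8 value passed without Col-0 control replicate 1 (1.24), range of adjusted p 0.0453 to 0.249.

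Of the other class B factors, HSFB3 and HSFB4 rose in med8, as did HSFC1, the class C factor, and HSFB2B did not pass (0.43 ± 0.18, edgeR adjusted p = 0.0649). HSFB3 went from 0.206, 0.203 and 0.142 CPM to 0.491, 0.71 and 0.443 CPM (1.55 ± 0.36, edgeR adjusted p = 0.0047). HSFB4, which takes part in the identity of root stem cells, went from 3.85, 3.92 and 5.7 CPM to 6.67, 6.64 and 7.82 CPM (0.65 ± 0.17, edgeR adjusted p = 0.00782). HSFC1 went from 0.138, 0.236 and 0.321 CPM to 0.462, 0.492 and 0.626 CPM (1.18 ± 0.30, edgeR adjusted p = 0.00831). In each the med8 groups did not overlap, and in Col-0 the values were 0.21 ± 0.32, 0.28 ± 0.17 and 0.20 ± 0.29, with no call. The interactions were 1.34 ± 0.49 for HSFB3, 0.37 ± 0.23 for HSFB4 and 0.98 ± 0.43 for HSFC1, none of which passed (edgeR adjusted p at least 0.0945).

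The cytosolic chaperone genes HSP70 and HSP90.1 rose in both genotypes. HSP70 was at 11.1, 15.4 and 14.5 CPM in Col-0 controls and 25.8, 24.7 and 31 CPM on methyl viologen, and at 15.1, 12.6 and 12.1 CPM in med8 controls and 25.6, 24.5 and 23 CPM on methyl viologen. All 6 treated libraries lay above all 6 controls. The rise of 0.99 ± 0.13 in Col-0 (edgeR adjusted p = 0.000197) stood beside 0.87 ± 0.13 in med8 (edgeR adjusted p = 0.000273), and the interaction was −0.12 ± 0.18 (edgeR adjusted p = 0.754).

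HSP90.1 was at 8.53, 15.7 and 10.4 CPM in Col-0 controls and 16.7, 20.6 and 20.4 CPM on methyl viologen. In med8 it was at 9.67, 8.51 and 7.3 CPM in controls and 17, 15.3 and 15.7 CPM on methyl viologen. Neither pair of groups overlapped. The rise of 0.74 ± 0.19 in Col-0 (edgeR adjusted p = 0.012) stood beside 0.91 ± 0.19 in med8 (edgeR adjusted p = 0.00251), and the interaction was 0.18 ± 0.27 (edgeR adjusted p = 0.741). The Col-0 call did not hold without its control replicate 3 (0.67), range of adjusted p 0.000563 to 0.0521.

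The other large chaperone genes passed in no comparison. HSP101, the disaggregase needed for acquired thermotolerance, was at 9.51, 10.1 and 9.37 CPM in Col-0 controls, 9.62, 8.1 and 10.4 CPM in treated Col-0, 9.12, 7.59 and 10.1 CPM in med8 controls and 10.2, 10.2 and 10.1 CPM in med8 on methyl viologen. The Col-0 groups overlapped, and treated med8 lay just above its controls. The differences were −0.04 ± 0.12 in Col-0 and 0.19 ± 0.12 in med8 (edgeR adjusted p = 0.814 and 0.214). Hsp70b ranged from 5.69 to 7.99 CPM over the 12 libraries.

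**Figure D4:**
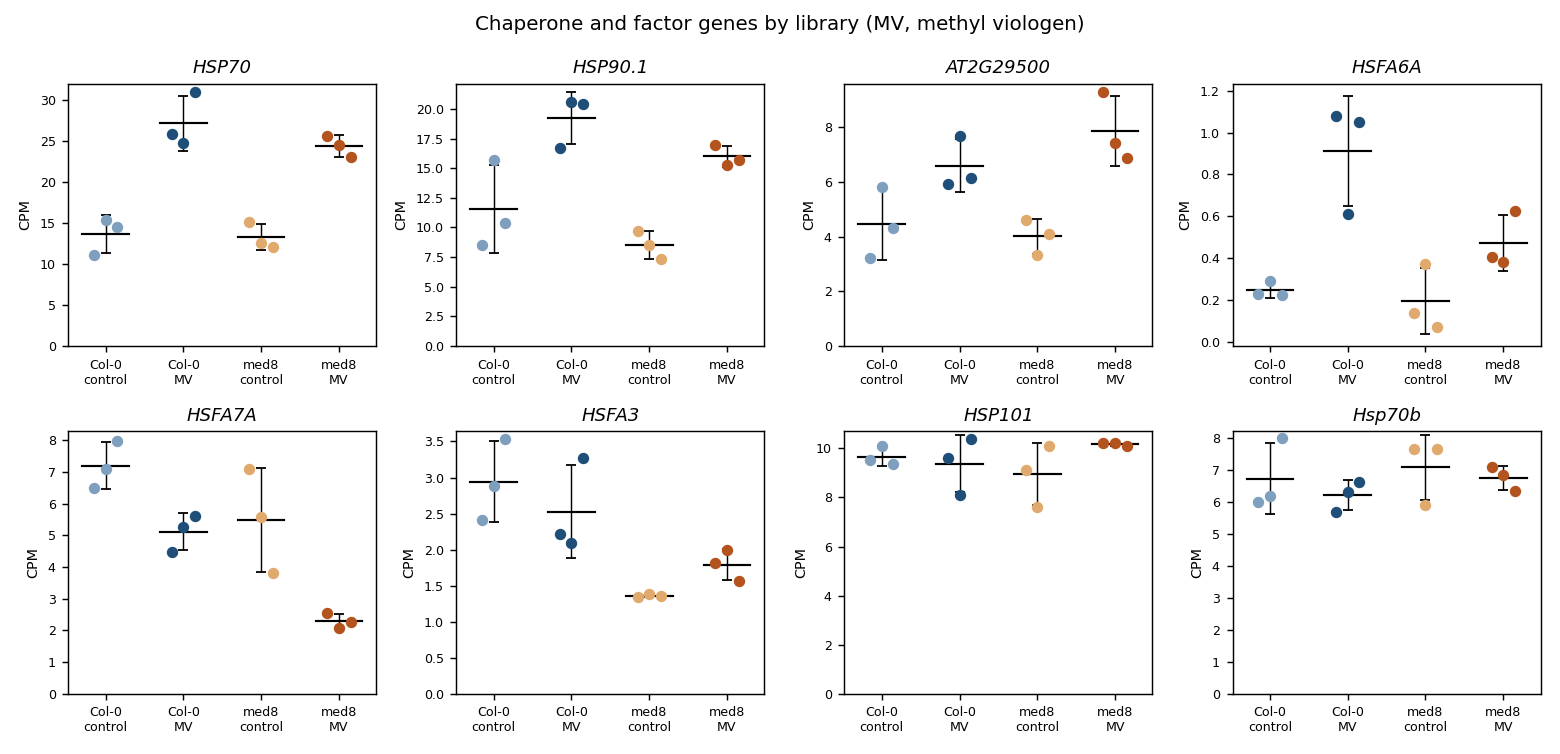
Points are the CPM of each library for 8 further members, with the group mean and bars of 1 SD (n = 3). HSP70 and HSP90.1 are higher on methyl viologen (MV) in both genotypes, HSFA7A is lowest in med8 on methyl viologen at 2.08 to 2.54 CPM, HSFA3 is low in med8 controls, and HSP101 and Hsp70b show no called change.

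Among the sHSPs, HSP23.6-MITO, AT2G29500 and AT1G07400 rose in med8, 3 of 9 tested, and none fell, where 21.8% of all loci rose and 21.2% fell. HSP23.6-MITO had to be high in treated med8 to be tested, so this count is a description only. In Col-0 none was called by edgeR (2 had an unadjusted p under 0.05), where 28.8% of all loci were called. AT2G29500, annotated by RefSeq as an HSP20-like chaperone, had the highest level per length of the sHSPs in Col-0 controls, at 4.22 CPM per kb. It was at 3.22, 5.82 and 4.32 CPM in Col-0 controls, 5.91, 7.69 and 6.15 CPM in treated Col-0, 4.61, 3.34 and 4.1 CPM in med8 controls and 9.28, 7.4 and 6.86 CPM in med8 on methyl viologen. Treated libraries were above the controls of their genotype in both. The rise in med8 was 0.96 ± 0.21 (edgeR adjusted p = 0.00316). The Col-0 value was 0.56 ± 0.21 (edgeR adjusted p = 0.0641), which passed without Col-0 control replicate 2 (0.79) or med8 control replicate 3 (0.56) and with DESeq2 (0.56), range of adjusted p 0.0167 to 0.191.

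AT1G07400, a further HSP20-like gene, was at 0.551, 0.709 and 0.712 CPM in med8 controls and 1.04, 1.91 and 1.56 CPM in med8 on methyl viologen. In Col-0 it was at 0.553, 0.711 and 0.726 CPM and 0.948, 0.841 and 1.79 CPM. Treated and control libraries did not overlap in either genotype. It rose in med8 (1.19 ± 0.33, edgeR adjusted p = 0.0116), with 0.84 ± 0.33 in Col-0 (edgeR adjusted p = 0.0769). The med8 call was lost without med8 methyl viologen replicate 2 (0.99), range of adjusted p 0.00387 to 0.0524, and the Col-0 value passed without Col-0 methyl viologen replicate 2 (1.04), range 0.0429 to 0.342.

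HSP18.2, a cytosolic sHSP, differed by genotype rather than treatment. It was at 2.08, 2.04 and 2.65 CPM in Col-0 controls and 1.48, 1.52 and 1.5 CPM in med8 controls, and at 1.92, 1.77 and 2.56 CPM in Col-0 and 1.3, 1.2 and 1.49 CPM in med8 on methyl viologen. Every med8 library was below every Col-0 library. The difference was called on methyl viologen (−0.65 ± 0.18, edgeR adjusted p = 0.0245) and not on control medium (−0.59 ± 0.19, edgeR adjusted p = 0.0883). It did not hold without treated Col-0 replicate 3 (−0.47) and without med8 methyl viologen replicate 1 (−0.63) or 2 (−0.58), range of adjusted p 0.0186 to 0.0973.

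On methyl viologen, 7 of 31 members differed between the genotypes (22.6%, against 23.7% of all loci, 10.8% higher and 12.9% lower), or 6 of 30 without HSP23.6-MITO. HSFA4A, HSFA8, HSFB2A, HSFA1D and HSP23.6-MITO were higher in med8, and HSFA7A and HSP18.2 were lower. This comparison shares its treated libraries with those within each genotype.

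Of the 31 members tested, 14 passed in no comparison. The most expressed of these were HSFA5, at 11.8 to 14.4 CPM over the 12 libraries, HSFA4C, at 8.73 to 11.3 CPM, and HSP101. Several of the rest were sHSPs with few counts. HSP17.4 was at 0.619, 0.439 and 0.641 CPM in med8 controls and 1.56, 1.26 and 1.2 CPM on methyl viologen, groups that did not overlap, with 1.24 ± 0.50 (edgeR adjusted p = 0.0646). The neighbouring class II genes HSP17.6A and HSP17.6II, on the minus strand at chr5:3883957-3884838 and chr5:3882231-3883111, stood at 0.163 to 1.02 CPM and 0.0326 to 0.517 CPM. Reads of similar sHSP genes may be shared between them, since the handling of multiply mapped reads was not given.

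The heat shock element core was looked for in the 250 bases before each RefSeq gene start (assembly TAIR10.1), as GAA-NN-TTC or TTC-NN-GAA (N, any base), each its own reverse complement. It was in 9 of 32 member promoters (28.1%), against 15.8% of 21519 loci of the table: 4 of 13 class A factors, 5 of 10 sHSPs, and none of the class B and C factors or large chaperones. The 3-unit form, GAA-NN-TTC-NN-GAA or its reverse complement TTC-NN-GAA-NN-TTC, which contains both cores, was in 4 of 32 (12.5%), against 0.418% of the loci. These 4 were HSFA2, HSFA7A, HSP17.4 and AT1G53540. Only exact matches in this window were counted, so imperfect elements and elements farther away would be missed. A promoter without a match is thus not shown to lack the element. Some windows overlapped a neighbouring gene, so part of them was sequence of that gene. Among those without a core, the overlap was 250 bases for HSFC1, 226 for AT1G07400, 217 for HSFA3 and 178 for Hsp70b. Among those with the 3-unit form, it was 92 bases for HSFA2 and 77 for AT1G53540. Of the 12 members that rose in med8, 1 had a core (HSFA4A) and none the 3-unit form, and of the 2 that fell 1 had both (HSFA7A). Among the 17 members without a call in med8, 7 had a core and 3 the 3-unit form.

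The promoters below show where the element lay in the 4 genes with the 3-unit form, followed by those of HSFA4A and HSP23.6-MITO, the factor and the sHSP with the largest called rises in med8. They run 5′ to 3′ on the gene's strand up to the base before the gene start, and capitals mark each match. The HSFA7A stretch is chr3:19264891-19265140 on the plus strand, HSFA2 chr2:11135524-11135623 (plus), HSP17.4 chr3:16984868-16984967 (minus), AT1G53540 chr1:19980199-19980298 (plus), HSFA4A chr4:10349903-10350152 (minus) and HSP23.6-MITO chr4:12916676-12916925 (plus).
HSFA7A: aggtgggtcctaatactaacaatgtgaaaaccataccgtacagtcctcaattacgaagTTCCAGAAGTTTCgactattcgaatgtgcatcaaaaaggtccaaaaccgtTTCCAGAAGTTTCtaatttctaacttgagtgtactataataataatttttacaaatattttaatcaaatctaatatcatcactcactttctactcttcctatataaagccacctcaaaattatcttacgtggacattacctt
HSFA2: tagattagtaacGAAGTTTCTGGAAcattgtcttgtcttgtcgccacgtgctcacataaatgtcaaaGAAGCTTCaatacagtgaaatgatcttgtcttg
HSP17.4: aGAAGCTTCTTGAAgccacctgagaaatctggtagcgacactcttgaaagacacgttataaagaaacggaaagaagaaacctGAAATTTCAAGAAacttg
AT1G53540: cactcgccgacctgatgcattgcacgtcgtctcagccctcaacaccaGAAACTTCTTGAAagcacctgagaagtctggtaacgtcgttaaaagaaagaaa
HSFA4A: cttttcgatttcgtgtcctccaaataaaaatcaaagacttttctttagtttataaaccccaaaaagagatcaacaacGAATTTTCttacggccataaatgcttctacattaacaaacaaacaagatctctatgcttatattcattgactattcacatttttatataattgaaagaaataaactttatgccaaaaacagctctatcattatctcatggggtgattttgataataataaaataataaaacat
HSP23.6-MITO: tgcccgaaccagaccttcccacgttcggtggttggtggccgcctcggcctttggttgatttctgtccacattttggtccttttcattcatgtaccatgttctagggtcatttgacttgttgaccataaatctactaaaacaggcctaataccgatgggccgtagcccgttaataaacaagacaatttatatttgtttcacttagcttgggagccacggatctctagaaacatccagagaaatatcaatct
In HSFA7A, the gene that fell, the 3-unit elements began 192 and 142 bases before the start. In HSFA2 and HSP17.4, which were called in no comparison, they began 88 bases before it in the first and 99 and 18 bases before it in the second, and HSFA2 had a further core at 33 bases. AT1G53540 had its element 53 bases before the start and no call, at 0.0651 to 0.982 CPM. The HSFA4A stretch held 1 core, and the HSP23.6-MITO stretch held no match of these letters.

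Related chaperone genes outside the set are given beside the shares over all loci, of which 15.4% rose and 13.4% fell in Col-0, and 21.8% rose and 21.2% fell in med8. Of 11 other HSP70 genes, 7 rose and none fell in Col-0 (median 0.49, against 0 over all loci) and 8 rose and none fell in med8 (median 0.39, against 0.03). Of 6 other HSP90 genes, 5 rose in Col-0 and 3 in med8, and none fell (medians 0.65 and 0.46). Of 12 co-chaperones and HSF regulators, 6 rose and 2 fell in Col-0, and 8 rose and 1 fell in med8 (medians 0.33 and 0.34). Of 9 other sHSP and HSP100 genes, 3 rose and none fell in Col-0, and 2 rose and 3 fell in med8 (medians 0.29 and −0.14). The HSP70 gene mtHsc70-1 and the HSP100 gene CLPB4, picked after their values were seen, rose in both genotypes, mtHsc70-1 by 1.33 ± 0.13 and 1.14 ± 0.13, and CLPB4 by 0.78 ± 0.06 and 0.86 ± 0.06 (Col-0 and med8, edgeR adjusted p at most 4.19e-05). AT5G51440, an HSP20-like gene also picked so, went from 1.3, 1.87 and 1.99 CPM to 25.6, 16.6 and 18.4 CPM in Col-0 and from 3.27, 2.16 and 1.78 CPM to at least 20.9 CPM in each treated med8 library (3.55 ± 0.23 and 3.22 ± 0.23, interaction −0.33 ± 0.32, edgeR adjusted p = 0.573).

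The interaction was called for 2 of the 11 other HSP70 genes, 2 of the 6 other HSP90 genes, 1 of the 12 co-chaperones and 3 of the 9 other sHSP and HSP100 genes, where 13.9% of all loci were called. CLPB3, the plastid disaggregase, went from 80.8, 77.9 and 73.2 CPM to 116, 116 and 112 CPM in Col-0 and from 89.8, 95.5 and 108 CPM to 83.1, 79.4 and 77.8 CPM in med8. It rose in Col-0 (0.57 ± 0.07) and fell in med8 (−0.29 ± 0.07), and the interaction was −0.86 ± 0.10 (edgeR adjusted p = 0.000263). The plastid HSP90 gene CR88 (−1.07 ± 0.26), the plastid HSP70 gene cpHsc70-2 (−0.76 ± 0.20) and the stromal chaperone gene CLPC1 (−0.52 ± 0.13) had called interactions of the same sign, as did the HSP20-like gene AT4G21870 (−1.65 ± 0.36) and Hsp89.1 (−0.55 ± 0.17; edgeR adjusted p at most 0.0465). Hsp70-2 (1.44 ± 0.40) and the DnaJ gene AT2G20560 (0.80 ± 0.21) had called interactions of the other sign (edgeR adjusted p = 0.0344 and 0.0267). In the same lists the interaction was not called for AT4G16660 (0.41 ± 0.17), SHD (0.26 ± 0.15), the co-chaperone Hop3 (0.54 ± 0.18) and J2 (0.28 ± 0.15). That of Hop3 passed with upper-quartile scaling (0.58), without treated Col-0 replicate 3 (0.62) and without med8 control replicate 2 (0.66). That of AT4G16660 passed without both libraries that stood apart (0.54).

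Of 8 further stress-responsive genes, not all of them known from heat, 2 rose and 2 fell in Col-0, and 3 rose and 1 fell in med8. Of all loci, 28.8% and 43.1% were called. GolS3, a galactinol synthase gene, stood at 6.32, 4.36 and 6.88 CPM and fell to 3.01, 3.6 and 2.42 CPM in Col-0, and rose from 5.92, 9.08 and 7.66 CPM to 11.5, 12.8 and 16.4 CPM in med8 (interaction 1.81 ± 0.31, edgeR adjusted p = 0.00262). DREB2B had an interaction of 1.17 ± 0.21 (edgeR adjusted p = 0.00368) and DREB2A, an activator of HSFA3, 0.59 ± 0.23 (edgeR adjusted p = 0.118). Of 13 genes of the unfolded protein response of the endoplasmic reticulum, 1 rose in Col-0 and 9 in med8, and none fell (medians 0.07 and 0.45), where 15.4% and 21.8% of all loci rose. BZIP60, a factor of that response, rose in both (0.51 ± 0.14 and 1.22 ± 0.14), and its interaction was 0.71 ± 0.19 (edgeR adjusted p = 0.0304). It was the 1 called interaction among the 13 genes, where 13.9% of all loci were called. Among Col-0 controls, replicate 2 was the highest for each of these genes. BIP1, for example, stood there at 180, 268 and 213 CPM and CRT3 at 54.3, 124 and 75.6 CPM. The chaperone gene BIP3 missed the threshold (interaction 3.12 ± 0.95, edgeR adjusted p = 0.0503), as did ATERDJ3B (0.48 ± 0.18, edgeR adjusted p = 0.109), which passed without treated Col-0 replicate 3 (0.61) and without both libraries that stood apart (0.62).

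Of these 11 called interactions outside the set, 4 (CLPB3, AT4G21870, GolS3 and DREB2B) kept the call in every fit without 1 library. The other 7 lost it in at least 1 such fit: 6 without treated med8 replicate 2, 6 without treated Col-0 replicate 1 and 5 without Col-0 control replicate 2. CR88 lost it without Col-0 control replicate 3, Col-0 methyl viologen replicate 1 or med8 methyl viologen replicate 3. Over all alternatives they ran from −1.26 to −0.83 for CR88, −0.89 to −0.58 for cpHsc70-2, −0.58 to −0.46 for CLPC1, −0.65 to −0.42 for Hsp89.1, 0.98 to 1.68 for Hsp70-2, 0.68 to 0.92 for AT2G20560 and 0.57 to 0.83 for BZIP60. The interaction of BIP3 passed without Col-0 control replicate 1 (3.63), with DESeq2 (3.11), upper-quartile scaling (3.15), a filter of 1 CPM (3.13) and without both libraries that stood apart (3.50), and ran from 1.61 to 3.63.

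Clock genes moved with the groups, and root genes moved in both directions. The mean log2 difference between 5 morning and 6 evening clock genes was −3.41 to −3.13 in Col-0 controls, −0.95 to −0.28 in Col-0 on methyl viologen, −2.46 to −2.23 in med8 controls and −1.79 to −1.55 in med8 on methyl viologen. The summed level of the 17 root markers was 198 to 209, 209 to 234, 132 to 227 and 242 to 252 CPM in the same order, with the low value in med8 control replicate 3. Their mean log2 level ranked the groups differently, at 2.62 to 2.64, 2.44 to 2.72, 1.98 to 2.58 and 2.47 to 2.56. Of the 17, 5 rose and 4 fell in Col-0, and 7 rose and 5 fell in med8. The part of clock or root genes in the values above was not tested.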

How the data were processed

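The deposited table gives unnormalized counts for each locus. For these counts the submitters' processing notes name Trim Galore 0.3.3, TopHat2 2.1.0, the TAIR10 genome and featureCounts of Subread 1.4.6. Libraries were made with a stranded mRNA kit and read as 75 bp single ends, per the labels' protocols. Strand and multiple-mapping settings were not given in the sources used here, so counts of overlapping genes and close paralogs are uncertain. The labels do not say whether replicates were separate cultures, so the p-values reflect only differences among these libraries, which may be technical.

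Counts of all 12 libraries were fitted in edgeR 4.0.16 (R 4.3.3) with TMM scaling, 1 mean per group, filterByExpr (minimum count 10, minimum total 15) and the robust quasi-likelihood test, and p-values were adjusted over all 20741 loci tested. The fit was tested on simulated counts with known changes. CPM used effective library sizes, and clock and root means were of log2(CPM + 0.5). Symbols, positions, exon lengths and promoters came from RefSeq TAIR10.1. Intervals and counts cover counting error only.

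Members passing in any comparison were named, with HSFA2, HSP101, HSP70 and HSP90.1, the 3 most expressed uncalled members, and 3 genes of each other list by interaction p. Any further gene was picked with its values known. The promoter of HSFA7A follows a rule on called members with the 3-unit element; the others printed were added after the values were seen. Members, lists, tests and alternatives were chosen with earlier results of these data known.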

Additional observations from a re-analysis of the deposited data

Results flagged for a closer look

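The response to methyl viologen differed between Col-0 and med8 by the interaction test for HSFA4A (1.44), HSFA8 (1.64), HSFB2A (1.37) and HSP23.6-MITO (4.83), as log2 values with med8 above Col-0. For HSFA8 the genotypes moved in opposite directions, −0.71 in Col-0 and 0.93 in med8. The Col-0 groups overlapped, and that fall lost its call in 5 of 20 alternatives (edgeR adjusted p up to 0.116). HSP23.6-MITO was tested only because it was high in treated med8, and its interaction lost the call in 7 fits without 1 library (adjusted p up to 0.243). It rests on 10, 21 and 5 counts in the 3 other groups, against 348 in med8 on methyl viologen.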

How the results depend on the processing

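Of 30 called results of the members, 8 lost their call in at least 1 alternative. The other 22 kept it in every alternative that tested the gene. Among them are HSP23.6-MITO within med8 and between genotypes on methyl viologen, and HSFA6A in Col-0. These genes had to be high in treated libraries to be tested, so their kept calls do not count as support. None of the 105 member values examined reversed a call. A filter of 1 CPM in 3 libraries left the called members HSFA6A, HSFB3 and HSFC1 untested, and also members without a call, such as HSFA2. With it, 3 members were called for methyl viologen in Col-0 and 12 in med8. The number of members called without 1 library ran from 2 to 6 for methyl viologen in Col-0, 12 to 17 in med8, 0 to 1 between genotypes on control medium, 5 to 8 between them on methyl viologen and 3 to 5 for the interaction. The number of all loci called ran from 4391 to 7375, 7092 to 9848, 402 to 1625, 3211 to 6390 and 1874 to 3332 in the same order, lowest without Col-0 control replicate 3 in the third and without treated med8 replicate 2 in the last 2. The comparison of genotypes on control medium moved most: DESeq2 1.42.0 called 2005 of all loci, a fit of only the groups compared called 143 and 0 members, and leaving out both libraries that stood apart called 1848 and 2 members, against 1200 and 1. Scaling by RLE or upper quartile shifted the median over all loci by under 0.1. Upper-quartile scaling moved the share of higher loci among those called from 45.5 to 53.2% between genotypes on methyl viologen and from 44.9 to 53.3% for the interaction.

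Replicate numbers are shared between groups, but no label says what they mark. Deviations of same-numbered libraries correlated by −0.38 to 0.46, over 0.1 in 7 of 18 pairs, so the numbers were not taken to pair the samples. With a replicate block, members called were 4, 15, 1, 6 and 4 and loci called 5639, 8682, 1002, 4571 and 2622, in the order above; the HSFA1D calls within med8 (0.25) and between genotypes (0.27) did not pass with it. With a window of 100 bases the core was in 6 promoters in place of 9. At the filter's 0.301 CPM, HSP17.6II was at or over it in 1 library and was not tested, and HSP23.6-MITO was in 4 libraries and was tested.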
